A study of Mus musculus with 16 samples.

Results

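The genes described here carry the TGF-beta, BMP and Hedgehog signals from the outside of the cell to the nucleus. They were taken as 56 named genes, and every line of the RNA–chromatin interaction tables whose RNA carries one of these names was collected. Of the 56 genes, 44 had at least 1 listed pair in either library, beside 10736 protein-coding RNAs (pcRNAs) with a listed pair in all. The cells were PGK12.1, a mouse embryonic stem cell line (mESCs) grown with serum and leukemia inhibitory factor and fixed in 1% formaldehyde. In RADIP, RNA lying on chromatin is joined to the DNA beside it through an adapter, as in RADICL-seq, and the joined molecules are then captured with an antibody, here one against H3K27me3, the histone mark laid down by Polycomb repressive complex 2. The Input libraries came from 10% of the same lysate without antibody. The labels give 8 Input and 8 H3K27me3-RADIP libraries, the study's methods give 4 biological replicates per condition, and the authors merged all libraries of a condition into 1 table. No spread between replicates can therefore be computed, and every interval below covers counting error between 2 merged libraries only.

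A pair is 1 read that joins an RNA tag, assigned to its gene on its own strand, to a DNA tag. The tables list a pair only where its RNA passed the authors' limit on q (at most 0.1) in that 25-kb DNA bin, and the smallest listed combination of a pathway RNA with a bin held 7 pairs in each library. A gene without a line thus had no bin past that limit, which does not say that its RNA was missing from chromatin. The pathway genes gave 8283 of 1305107 listed pairs (0.635%) in Input and 9391 of 1415135 (0.664%) after H3K27me3 capture. Stem cell markers fitted the label in part: of 12 markers, 6 were listed in Input and 7 in H3K27me3-RADIP. Esrrb had 2388 and 2500 pairs in Input and H3K27me3-RADIP, Tfcp2l1 had 441 and 484, Zfp42 had 130 and 98 and Tbx3 had 76 and 100. Lin28a (20 and 15), Klf4 (13 and 13) and Sox2 (0 and 8) had few. Pou5f1, Nanog, Dppa4, Utf1 and Prdm14 had no line. Of 21 markers of endoderm, trophoblast, mesoderm, neural cells and feeder fibroblasts, 4 were listed in Input and 6 in H3K27me3-RADIP, none above 41 pairs.

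TGF-beta and BMP ligands are secreted proteins that bring together type I and type II receptor kinases, which phosphorylate SMAD proteins that enter the nucleus and act on genes. Hedgehog ligands bind Patched, which releases Smoothened from inhibition and changes how the GLI zinc-finger transcription factors are processed. In embryos many of these genes are known as developmental regulators, and in mESCs the BMP and Nodal branches are known for their part in self-renewal and in the exit from it.

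The genes fell into very unequal groups. The 4 Hedgehog genes that act in the cytoplasm and nucleus (Gli1, Gli2, Gli3 and Sufu) gave 4208 of the 8283 Input pairs (50.8%) and 4772 of the 9391 H3K27me3-RADIP pairs (50.8%). The 8 SMADs followed with 1576 and 1941 pairs, the 4 SMAD regulators with 912 and 1093, the 12 TGF-beta and BMP receptors and coreceptors with 783 and 829, and the 5 Hedgehog proteins of the membrane with 650 and 468. The 14 ligands together gave 137 pairs (1.65%) in Input and 232 (2.47%) in H3K27me3-RADIP, and the 6 extracellular modulators gave 17 and 49. Pairs of the pathway genes were therefore found mostly with RNA of the intracellular parts, and in large part with that of 1 gene. Gli2 alone gave 3627 Input pairs and 4228 H3K27me3-RADIP pairs. These were 43.8% and 45.0% of all pairs of the pathway genes.

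**Figure D1:**
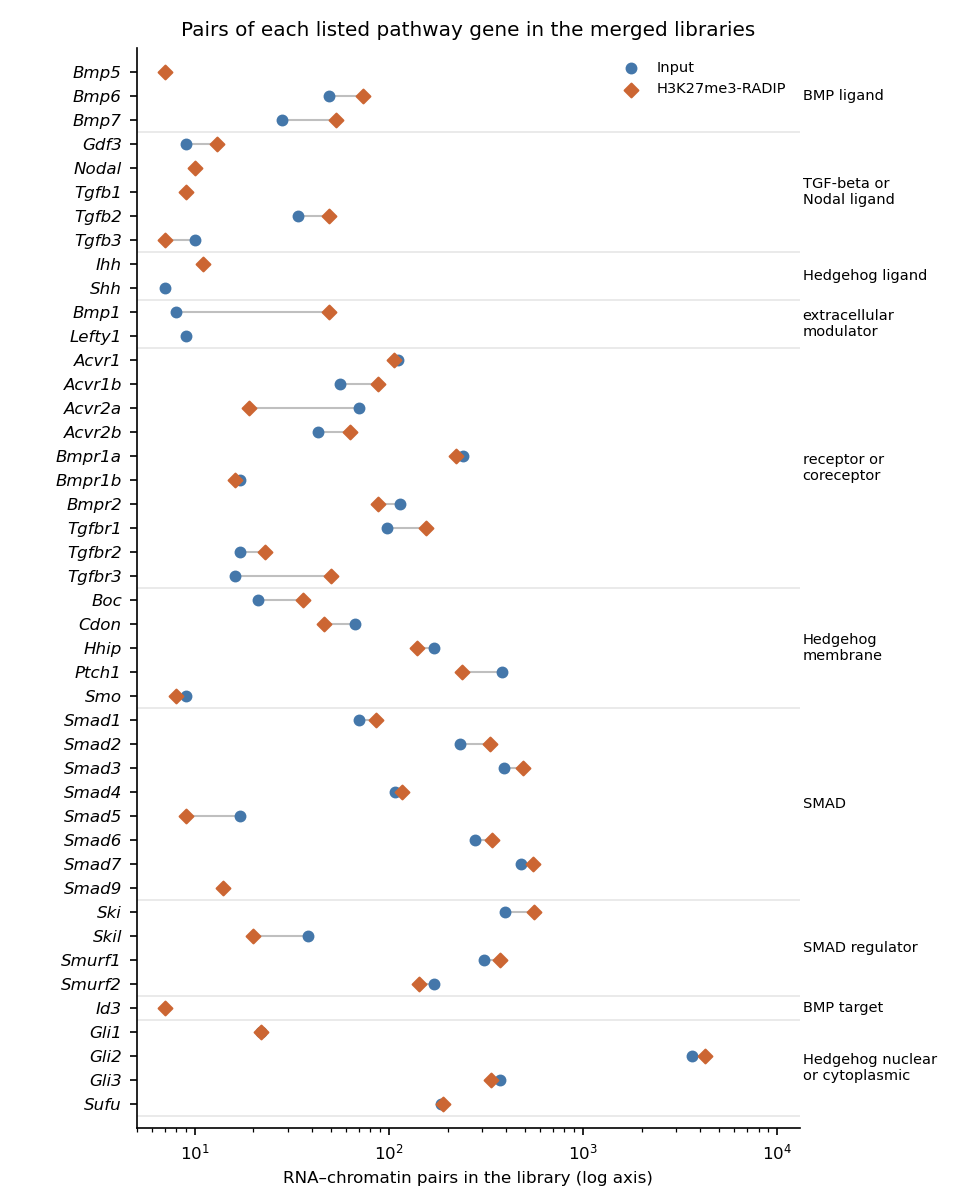
Pairs (log axis) of the 44 listed pathway genes in the merged Input library (circles) and the merged H3K27me3-RADIP library (diamonds), 1 row per gene and grouped by role. Gli2 lies far to the right of all others with 3627 and 4228 pairs, and genes with a single symbol were listed in 1 library only or, for Gli1, had 22 pairs in both.

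Genes without a listed pair were mostly short. The 12 genes listed in neither library were the ligands Bmp2, Bmp4, Bmp8b and Gdf6, the Nodal antagonist Lefty2, the secreted BMP antagonists Chrd, Nog and Grem1, the type I receptor Acvr1c, the Nodal coreceptor Tdgf1 and the BMP targets Id1 and Id2. Their median gene length was 8.20 kb, against 73.1 kb for the 36 genes listed in both libraries. Over the annotation, 48.8% of protein-coding gene names had a pair in either library. Length alone did not sort them, since Acvr1c spans 90.4 kb without a pair and Gdf3 had 9 and 13 pairs over 4.69 kb.

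Of the 44 listed genes, 6 were listed in H3K27me3-RADIP only and 2 in Input only. Tgfb1 (9 pairs), Nodal (10 pairs) and Bmp5 (7 pairs) are ligands of the TGF-beta family, Ihh (11 pairs) is a Hedgehog ligand, Smad9 (14 pairs) is a BMP-responsive SMAD and Id3 (7 pairs) is a BMP target, and each was listed in H3K27me3-RADIP only. Shh (7 pairs) and Lefty1 (9 pairs) were listed in Input only. All 8 rested on 1 bin each and on 7 to 14 pairs, close to the smallest number listed, so no fold is given for them. Among all pcRNAs with a pair in either library, 13.5% were listed in H3K27me3-RADIP only and 10.5% in Input only.

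All pairs of the pathway genes joined the RNA to its own chromosome, with 0 pairs to another chromosome in either library. They covered 354 combinations of an RNA and a bin in Input and 423 after capture, and 279 combinations were common to both. Without Gli2 the numbers were 241, 289 and 181.

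The ligands stayed close to their genes. Bmp6, a BMP ligand with a long gene (155 kb), had 49 Input pairs over 4 bins and 73 H3K27me3-RADIP pairs over 7 bins, at median distances of 5.18 and 7.48 kb. Bmp7 had 28 and 53 pairs in 3 bins each, and Tgfb2 had 34 and 49 pairs in 3 and 4 bins. Tgfb3 had 10 and 7 pairs and the TGF-beta family ligand Gdf3 had 9 and 13, in 1 bin each. Over the ligands as a group, the farthest DNA tag lay 124 kb from its RNA tag without capture and 158 kb after it, both from Bmp6.

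The receptors reached further. Bmpr1a, a BMP type I receptor, gave 241 Input pairs over 14 bins and 221 H3K27me3-RADIP pairs over 15. The type II receptor Bmpr2 gave 114 and 88 pairs in 7 bins in both libraries, and the type I receptor Acvr1 gave 111 and 106 in 7 and 9 bins. The activin and Nodal receptors Acvr1b (56 and 88 pairs) and Acvr2b (43 and 63) and the TGF-beta receptor Tgfbr1 (98 and 155) had more pairs in H3K27me3-RADIP, without passing the test described next. Bmpr1b (17 and 16) and Tgfbr2 (17 and 23) had few pairs. The farthest DNA tags of Tgfbr2 lay 15.2 and 79.3 kb away, and those of Bmpr1b 261 and 283 kb away inside its 332-kb gene.

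The SMADs and their regulators gave the best-covered set outside Gli2. Smad7, an inhibitory SMAD, had 480 Input pairs over 20 bins and 553 H3K27me3-RADIP pairs over 22, and the other inhibitory SMAD, Smad6, had 277 over 12 and 340 over 15. Of the receptor-activated SMADs, Smad3 had 392 and 491 pairs, Smad2 had 233 and 331, Smad1 had 70 and 86 and Smad5 had 17 and 9. The common partner Smad4 had 107 and 117. Ski, a nuclear repressor of SMAD activity, had 396 and 557, while its relative Skil had 38 and 20. The ubiquitin ligases Smurf1 (308 and 374) and Smurf2 (170 and 142) mark SMADs and receptors for degradation.

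Per kb of gene and per 1000000 listed pairs, the scale on which levels of genes can be set side by side, Smad7 had 12.9 in Input and 13.8 in H3K27me3-RADIP and Gli2 had 12.7 and 13.6. The next values were those of Ptch1 in Input (4.48) and Ski in H3K27me3-RADIP (5.74). Per kb, the compact Smad7 gene (28.4 kb) was thus at the level of the much longer Gli2.

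In the Hedgehog branch, Ptch1, the Hedgehog receptor and itself a target of the pathway, had 382 Input pairs over 17 bins and 238 H3K27me3-RADIP pairs over 11. The decoy receptor Hhip had 171 and 140, the coreceptors Cdon and Boc had 67 and 46 and 21 and 36, and Smo, the signal transducer held in check by Patched, had 9 and 8. The GLI repressor partner Sufu had 185 and 189 pairs and Gli3 had 374 and 333.

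The question of the main comparison was which RNAs gained or lost pairs after H3K27me3 capture. The 36 genes with pairs in both libraries were tested with the 8158 pcRNAs listed in both, by an exact negative binomial test on the pair counts with TMM scaling, an assumed biological coefficient of variation of 0.1 and Benjamini-Hochberg adjustment, and a gene was called at an adjusted p of at most 0.1 and a log2 fold of at least 0.5 either way. The test passed 4 of the 36 genes (11.1%), beside 14.5% of all pcRNAs tested. The 2 called higher in H3K27me3-RADIP stood beside a background of 6.77% and the 2 called lower beside 7.69%, so the share of called pathway genes lay near that of pcRNAs in general. The log2 fold was above 0 for 20 of the 36, beside 49.6% of all pcRNAs tested, and below 0 for 16, with a median of 0.18 beside -0.01 over all pcRNAs tested.

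Bmp1, the metalloprotease that cleaves procollagen and the BMP antagonist chordin, is encoded at chr14:70474558-70520234 on the minus strand. It was listed with 8 Input pairs, all in 1 bin, and with 49 H3K27me3-RADIP pairs over 3 bins. The log2 fold was 2.58 (95% counting interval 1.49 to 3.87), with an adjusted p of 0.00013 by the exact negative binomial test. Tgfbr3, the betaglycan coreceptor at chr5:107106570-107289629 on the minus strand, had 16 Input pairs over 2 bins and 50 H3K27me3-RADIP pairs over 6, a log2 fold of 1.61 (0.78 to 2.52, adjusted p = 0.0097 by the same exact test). Both had RNA on more bins of their own gene after capture.

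Acvr2a, a type II receptor for activins, Nodal and BMPs at chr2:48814109-48903269 on the plus strand, had 70 Input pairs over 5 bins and 19 H3K27me3-RADIP pairs over 2, a log2 fold of -1.91 (-2.73 to -1.17, adjusted p = 0.00029 by the exact test). In Input its RNA covered every bin from the start of the gene to its end, with 9 to 24 pairs each, and in H3K27me3-RADIP 1 bin of the gene body was left with 10 pairs. Ptch1, at chr13:63508328-63573598 on the minus strand, gave a log2 fold of -0.71 (-0.95 to -0.48, adjusted p = 0.034 by the exact test). The 3 bins of its gene body held 88, 77 and 71 Input pairs against 49, 58 and 52 after capture.

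**Figure D2:**
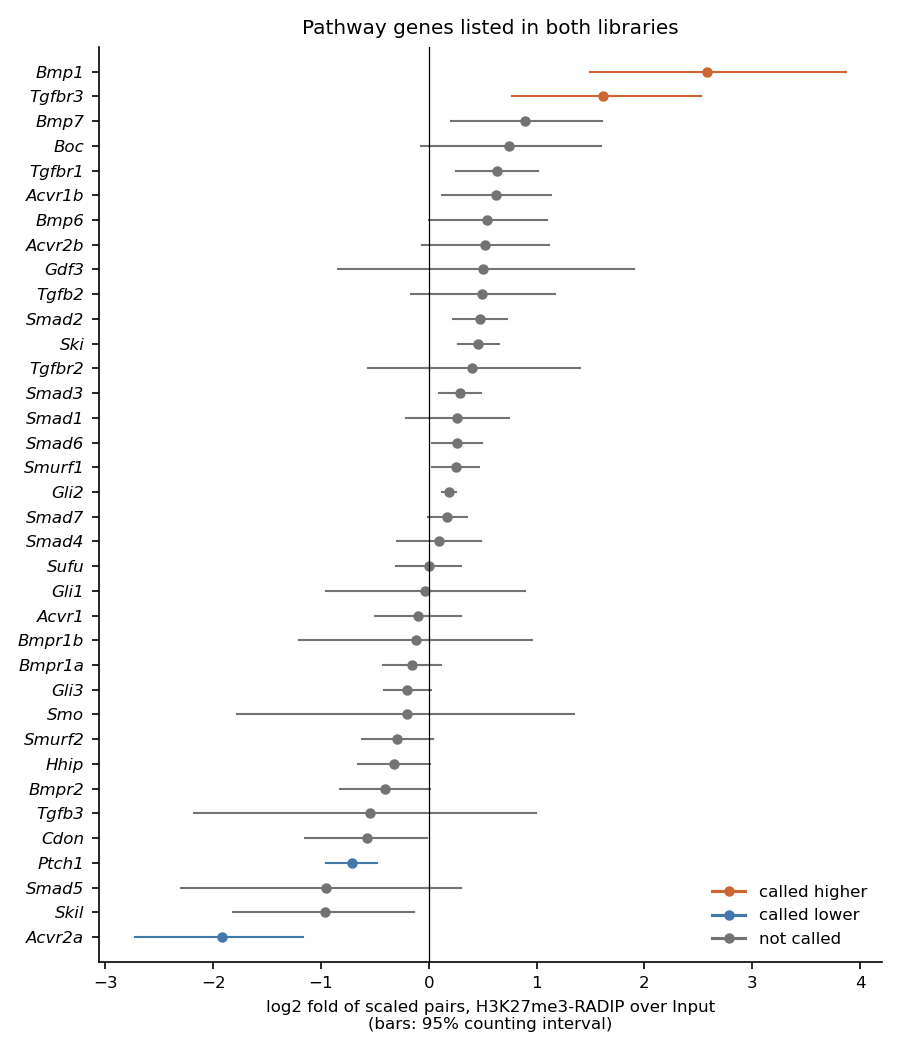
Log2 fold of scaled pairs, H3K27me3-RADIP over Input, for the 36 pathway genes listed in both libraries (points), with 95% counting intervals (bars). Bmp1 (2.58) and Tgfbr3 (1.61) were called higher, Acvr2a (-1.91) and Ptch1 (-0.71) lower, and the other 32 were not called.

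These calls rested in large part on bins listed in 1 library only. Counting bins listed for the RNA in both libraries, Bmp1 had 8 and 25 pairs, Acvr2a 16 and 10, Tgfbr3 8 and 8 and Ptch1 279 and 199, and none of the 4 was called, beside 0.50% of all pcRNAs so tested. The log2 folds over these bins were 1.70 for Bmp1, 0.05 for Tgfbr3, -0.62 for Acvr2a and -0.43 for Ptch1. With an assumed coefficient of variation of 0.2, Bmp1 and Acvr2a were still called and Tgfbr3 (adjusted p = 0.226 by the exact negative binomial test) and Ptch1 (0.621) were not, beside 1.32% of all pcRNAs called. Among the 32 genes not called, 10 had a counting interval above 0 and 2 below 0, beside 13.8% and 11.5% of all pcRNAs not called. The former included Bmp7 (log2 fold 0.89, 0.20 to 1.60), Tgfbr1 (0.63, 0.25 to 1.01), Acvr1b (0.62, 0.12 to 1.13), Smad2 (0.47, 0.23 to 0.72), Ski (0.46, 0.27 to 0.65) and Gli2 (0.19, 0.12 to 0.25), and the latter were Skil (-0.96, -1.82 to -0.14) and Cdon (-0.57, -1.15 to -0.01).

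RNA tags from the genes at the ends of this range are shown with their flanks to give the kind of sequence that was captured. A tag is a window of 25 bases (capitals) and is printed in the sense of the RNA with 25 bases on each side, from the mm10 genome. For each gene it is the intronic window with the most DNA positions over both libraries. The genes are Gli2 and Ski, which had the most and the second most pairs in H3K27me3-RADIP, and Bmp1 and Acvr2a, which had the highest and the lowest log2 fold. Smad7, which had slightly fewer pairs than Ski, is not shown.
Gli2, chr1:118865020-118865094, minus strand: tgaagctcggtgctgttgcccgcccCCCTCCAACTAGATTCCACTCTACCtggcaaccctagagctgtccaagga
Ski, chr4:155212305-155212379, minus strand: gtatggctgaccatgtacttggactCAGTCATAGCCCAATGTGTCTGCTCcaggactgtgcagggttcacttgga
Bmp1, chr14:70492995-70493069, minus strand: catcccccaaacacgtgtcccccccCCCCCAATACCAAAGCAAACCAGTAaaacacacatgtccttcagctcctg
Acvr2a, chr2:48819634-48819708, plus strand: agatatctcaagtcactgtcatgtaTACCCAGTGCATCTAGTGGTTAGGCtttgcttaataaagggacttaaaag
The Gli2 window lay 189 kb from the start of the gene and was found in 12 Input and 8 H3K27me3-RADIP pairs, with 16 different DNA positions. The others were much rarer, with 2 and 4 pairs for Ski, 1 and 2 for Bmp1 and 2 and 0 for Acvr2a, so that no single window carried the count of its gene.

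Most RNA tags lay in introns, and whether they came from unspliced RNA or from excised introns cannot be told from the tables. Of the pairs of the pathway genes, 92.7% in Input and 93.1% in H3K27me3-RADIP had an RNA tag labelled as intron, beside 88.9% and 89.6% over all pcRNAs. Coding sequence gave 2.89% and 2.65%, the 3′ untranslated region 2.40% and 2.18% and the 5′ untranslated region 1.56% and 1.50%. For Gli2 the intronic share was 97.5% and 97.7%, and for Acvr1, with 111 and 106 pairs, 100% and 98.1%. Gli1, a short gene that is itself a target of the pathway, had a low share, with 10 intronic pairs among its 22 Input pairs and 5 among its 22 H3K27me3-RADIP pairs. The mean GC content of the 25-base windows was 49.5% and 49.6% for the pathway genes, beside 46.8% and 47.0% over pcRNAs. The word GGGG, searched on the RNA strand alone, stood in 8.04% (95% Wilson interval 7.47 to 8.65) of their windows in Input and 8.67% (8.12 to 9.25) in H3K27me3-RADIP, beside 5.87% and 6.04% over all pcRNAs. For GGAA the shares were 9.67% and 9.79%, beside 9.75% and 9.94%. These are shares over pairs, and pairs of 1 gene share their source.

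The next comparison asked how far the DNA tag lay from the RNA tag with and without capture. Pairs inside a long gene can thus count as long-range. Pairs with more than 100 kb between the RNA and the DNA tag made up 41.0% (39.9 to 42.0) of the pathway genes' Input pairs and 46.4% (45.4 to 47.4) of their H3K27me3-RADIP pairs, which is 5.39 percentage points more (Newcombe interval 3.92 to 6.85). Over all pcRNAs the shares were 36.4% and 43.7%, a difference of 7.28 points. Part of this lay in bins listed in 1 library only: over bins listed for the RNA in both libraries the differences were 3.58 points (2.04 to 5.12) for the pathway genes and 4.65 points for all pcRNAs. Leaving out Gli2, the pathway genes stood at 20.1% and 25.7%, a difference of 5.62 points (3.95 to 7.27). Measured from the DNA tag to the nearest edge of the gene, the shares of all pathway genes were 31.0% and 36.2%. That is a difference of 5.23 points (3.84 to 6.62). Pairs over 1 Mb came almost only from Gli2, with 620 of 635 such Input pairs and 996 of 996 such H3K27me3-RADIP pairs.

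Among the 19 genes with at least 50 pairs in each library, the long-range share was higher in H3K27me3-RADIP for 16, beside 70.1% of pcRNAs so covered, and lower for 3. The interval of the difference lay above 0 for 6 of the 19, beside 44.9% of pcRNAs so covered, and below 0 for 0, beside 5.96%. Smad2 moved most. Its long-range share was 17.2% without capture and 47.1% with it, 30.0 points more (22.4 to 36.8), and its median distance went from 22.9 to 93.6 kb. For Tgfbr1 the shares were 9.18% and 32.3% (23.1 points more, 13.0 to 31.9) and the medians 24.4 and 67.9 kb. Ski (21.5% and 34.3%), Bmpr1a (29.0% and 39.4%), Acvr1 (4.50% and 12.3%) and Gli2 (67.7% and 71.5%) were the others. Bins listed in H3K27me3-RADIP only held 173 of the 331 Smad2 pairs, 72 of the 155 Tgfbr1 pairs and 124 of the 557 Ski pairs. Over bins listed in both libraries the shares were 7.66% and 14.6% for Smad2 (6.90 points, 0.48 to 13.9) and 66.3% and 69.0% for Gli2 (2.72 points, 0.58 to 4.86). They were 10.2% and 9.64% for Tgfbr1, 13.3% and 15.5% for Ski, 21.6% and 30.2% for Bmpr1a and 2.97% and 2.67% for Acvr1, with intervals of the difference that include 0.

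Of the 5 Hedgehog genes among the 19, the long-range share was lower in H3K27me3-RADIP for 3 and higher for 2, Gli2 and Sufu (9.73% and 13.8%, difference 4.03 points, -2.59 to 10.7). Ptch1 stood at 25.9% and 21.0% (difference -4.91 points, -11.5 to 2.07), Hhip at 30.4% and 23.6% (-6.84, -16.4 to 3.16) and Gli3, a transcription factor, at 27.5% and 25.8% (-1.71, -8.18 to 4.84), and the intervals of these 3 include 0. Over bins listed in both libraries the direction turned for Ptch1 (8.24% and 10.6%) and Hhip (12.2% and 13.0%). It stayed for Gli3 (21.7% and 20.7%) and Sufu (5.11% and 8.59%), and the intervals of these differences include 0. Of the Gli3 DNA tags, 83.4% in Input and 80.8% in H3K27me3-RADIP lay in its own gene. Cdon, with 46 pairs in H3K27me3-RADIP, had 25.4% of its Input pairs over 100 kb and 0% of those after capture, a difference of -25.4 points (-36.9 to -13.6). It fell short of the 50 pairs asked for in the count above. Its 2 upstream Input bins held 9 pairs each and were not listed in H3K27me3-RADIP. Over the 31 genes with at least 10 pairs in each library, 21 had a longer median distance after capture, beside 69.5% of all pcRNAs so covered.

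**Figure D3:**
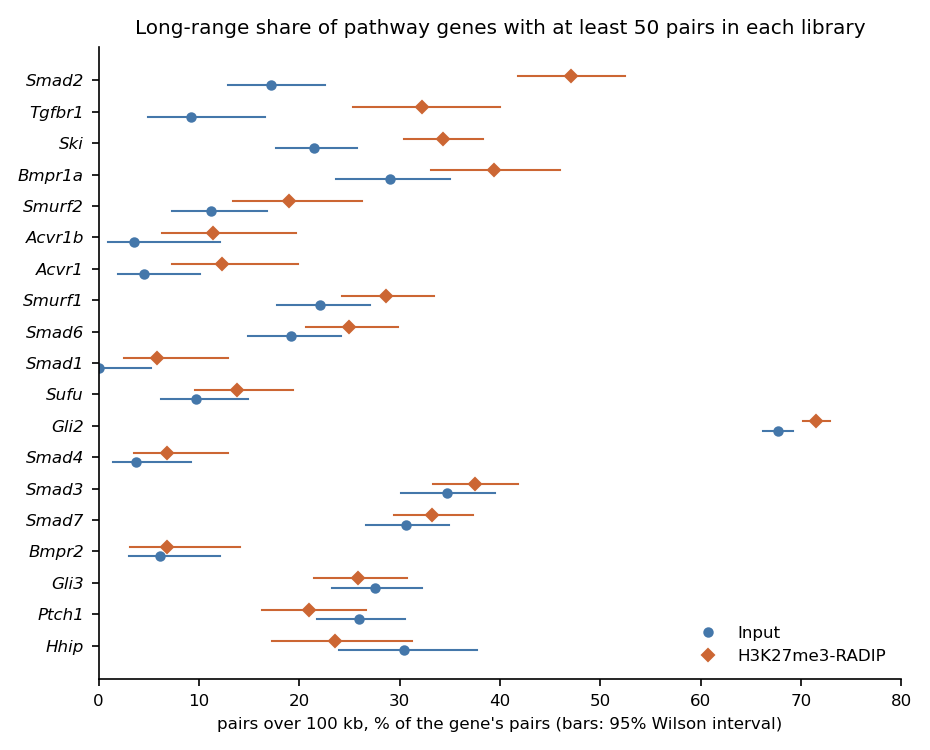
Share of each gene's pairs with more than 100 kb between RNA and DNA tag (percent, horizontal axis) in Input (circles) and H3K27me3-RADIP (diamonds), with 95% Wilson intervals, for the 19 pathway genes with at least 50 pairs in each library. Genes are ordered by the difference, from Smad2 (17.2% and 47.1%) at the top to Hhip (30.4% and 23.6%) at the bottom.

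Gli2, at chr1:118834132-119053619 on the minus strand, was the outstanding gene of the set. It is the main transcriptional activator of Hedgehog signalling in early embryos. By number of pairs it ranked 28 among 10176 Input RNA names and 29 among 10660 H3K27me3-RADIP names. It had 3627 Input pairs over 113 bins and 4228 H3K27me3-RADIP pairs over 134, and 98 bins were listed in both. Its pairs lay at a median distance of 266 kb without capture and 315 kb after it.

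The spread of Gli2 RNA was one-sided. Of its pairs with a DNA tag outside the gene, 71.7% in Input and 75.4% in H3K27me3-RADIP lay upstream of the start. Listed bins ran without large gaps to 2.08 Mb upstream in Input, with an isolated bin of 15 pairs at 2.31 Mb, and to 2.48 Mb in H3K27me3-RADIP. Downstream the last bin within 5 Mb in H3K27me3-RADIP lay 0.79 Mb from the start, past Tfcp2l1 and Clasp1, and in Input 2 isolated bins of 8 pairs each at Cntnap5a followed.

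Within the locus the libraries differed by window. The windows below were set after the profile had been seen, and their ratios of pairs per 1000000 are given as a description. In the gene body Gli2 had 1233 Input and 1221 H3K27me3-RADIP pairs, a ratio of 0.913 (counting interval 0.843 to 0.989). The first 0.5 Mb upstream, which holds Inhbb and Ralb, had 816 and 1103 pairs, a ratio of 1.25 (1.14 to 1.37). From 0.5 to 0.8 Mb upstream, over Epb41l5 and Ptpn4, it had 245 and 119 pairs, a ratio of 0.448 (0.357 to 0.560), and 3 bins within Ptpn4 that held 20, 12 and 13 pairs in Input were not listed in H3K27me3-RADIP. From 0.8 to 1.6 Mb upstream the ratio was again above 1, with 531 and 729 pairs (1.27, 1.13 to 1.42). With the TMM scaling used for the test above, the gene body ratio was 0.968 (0.894 to 1.05), an interval that includes 1, and the ratios of the other 3 windows were 1.32, 0.475 and 1.34. Under both scalings H3K27me3-RADIP thus had relatively fewer Gli2 pairs from 0.5 to 0.8 Mb upstream and more in the windows on both sides. Epb41l5 was not uniform. Its bin shared with Tmem185b, at the far end of the first 0.5 Mb, had 20 and 52 pairs (2.40, 1.41 to 4.24).

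Of the 98 bins listed in both libraries, 50 had a ratio of pairs per 1000000 above 1 and 48 below 1, and with TMM scaling these numbers were 60 and 38. The highest ratio belonged to the bin of En1, a homeobox gene of the midbrain and hindbrain 1.56 Mb upstream of the Gli2 start, with 9 Input and 37 H3K27me3-RADIP pairs (ratio 3.79, 1.80 to 8.93). Gli2 was the only RNA listed in that bin in either library. The lowest belonged to a Ptpn4 bin with 24 and 9 pairs (0.346, 0.141 to 0.771). The bin of Inhbb, which encodes the activin beta-B subunit, had 40 and 61 pairs, a ratio of 1.41 (0.929 to 2.15).

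**Figure D4:**
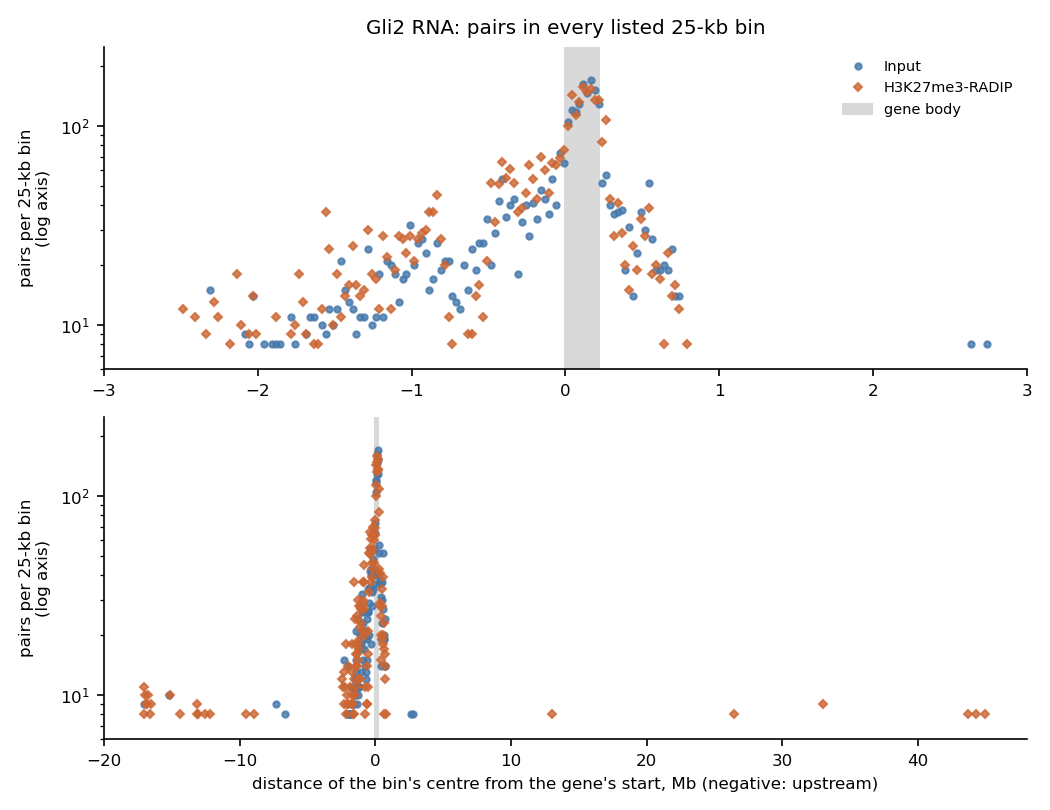
Pairs of Gli2 RNA in each listed 25-kb bin (log axis) against the distance of the bin's centre from the start of Gli2 in Mb, negative upstream, in Input (circles) and H3K27me3-RADIP (diamonds), with the gene body shaded. The upper panel shows the 3 Mb on either side, where the bin of En1 stands out 1.56 Mb upstream with 37 pairs in H3K27me3-RADIP, and the lower panel shows bins up to 44.9 Mb away, where 23 of the bins over 5 Mb away were listed in H3K27me3-RADIP and 4 in Input.

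Gli2 RNA was also listed very far from its gene. Bins over 5 Mb away numbered 4 in Input (36 pairs) and 23 in H3K27me3-RADIP (198 pairs), and 0 were shared. They held 8 to 10 pairs each in Input and 8 to 11 in H3K27me3-RADIP, close to the smallest number listed. In H3K27me3-RADIP 17 of the 23 lay upstream. Of these, 8 stood between 16.5 and 17.1 Mb from the start, among them bins of Nav1, Pkp1, Ascl5 and Cacna1s, and the next bin on, at Kif21b, was listed in Input with 9 pairs. Others held Cxcr4, Avpr1b or Adora1. The 6 downstream bins included 1 with Wnt6 and Wnt10a, 44.3 Mb from the start, and 1 with Speg. These few pairs set the mean distance of Gli2, which was 579 kb without capture and 1407 kb after it, and 466 and 514 kb without pairs over 5 Mb.

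Several RNAs lay on other genes of the same pathways. Gli2 RNA was joined to Inhbb, within 2 kb of the gene, in 18 Input and 31 H3K27me3-RADIP pairs. Smad3 and Smad6 are neighbours on chromosome 9, and Smad3 RNA was joined to Smad6 in 9 and 16 pairs, while Smad6 RNA was joined to Smad3 in 0 and 8. Members of the Ski family met SMAD RNA too. Smad6 RNA had 13 and 19 pairs in the bin of Skor1, 0.88 Mb downstream of its start, and Smad2 RNA had 0 and 10 pairs in a bin of Skor2, 0.62 Mb downstream. Ski RNA itself had 11 and 14 pairs in the bin of Hes5 and Pank4, and 0 Input pairs against 15 and 10 H3K27me3-RADIP pairs in 2 bins of Prdm16. These bins were picked for their genes after the values were seen.

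Among the 10 genes with at least 5 listed bins over 0.1 Mb from the gene, these far bins were more numerous in H3K27me3-RADIP for 8, beside 70.9% of the 1294 pcRNAs with as many far bins, and less numerous for 2, beside 20.2%. Ski had 6 far bins in Input and 13 after capture with 2 shared, against 11 and 10 nearer ones with 10 shared. Smad2 had 5 and 13 far bins with 2 shared, and 5 and 9 near ones with 5 shared. Smad3 had 8 and 12 far bins with 3 shared, and Smad7 had 11 and 13 with 8 shared. Ptch1 (9 and 5) and Hhip (4 and 3) had fewer. In all 10 genes a smaller share of the far bins than of the near bins was listed in both libraries, as in 99.7% of these pcRNAs. Apart from Gli2 the far bins held 8 to 23 pairs, with medians of 9 to 12.5 pairs by gene.

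The pathway genes were then viewed as DNA, by counting the pairs of all other RNAs whose DNA tag fell in the 25-kb bin of the gene's start. These values are no part of the rule that names the genes, although earlier results of these data were known when they were named. Over the 56 starts there were 679 such Input pairs and 1072 such H3K27me3-RADIP pairs, a ratio of pairs per 1000000 listed of 1.46 (counting interval 1.32 to 1.61). The same ratio over all 21728 protein-coding starts was 1.16. Both sums moved with how many combinations of an RNA and a bin were listed, and over combinations listed in both libraries the ratios were 1.24 (1.11 to 1.39), from 556 and 748 pairs, and 1.02. The value per 1000000 was higher in H3K27me3-RADIP at 29 of the 56 starts, beside 33.8% of all protein-coding starts, and lower at 12, beside 26.2%. Of the 41 starts with any pair of another RNA it was higher at 29, beside 56.4% of all starts with any. It was 0 in both libraries at 15 starts, beside 40.1% of all, among them Bmp2, Bmp4, Chrd, Grem1, Gli3 and Cdon. Neighbouring starts can share RNAs, so these starts are not replicates. The other RNAs include those of genes that overlap the counted gene.

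Shh, at chr5:28456815-28467256 on the minus strand, encodes the ligand sonic hedgehog and had 47 such pairs without capture and 100 after it, the most of the 56 starts in H3K27me3-RADIP, while in Input Tgfb3 (58) and Tgfb1 (50) had more. The log2 ratio of pairs per 1000000 was 0.97 (0.46 to 1.50). Most came from the RNA of its neighbours: Lmbr1, the gene whose intron holds the limb enhancer of Shh, gave 23 and 29 pairs, Dpp6 gave 16 and 28 and Rbm33 gave 8 and 25. The RNA 9530036O11Rik, whose gene overlaps Shh on the opposite strand, gave 0 and 18. Shh RNA itself had 7 pairs in that bin in Input and none listed in H3K27me3-RADIP. The ligand Ihh had 15 and 29 pairs of other RNAs, mostly from Nhej1 (15 and 20).

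Other starts differed among themselves. Over the 12 genes without an RNA line of their own there were 110 and 173 pairs of other RNAs, a ratio of 1.45, which is near that of all 56 starts. Nog, which encodes the BMP antagonist noggin, had 19 and 38 pairs, all from Msi2 (log2 ratio 0.88, 0.05 to 1.76). The start of Tgfb3 had 58 and 93 pairs (0.56, 0.08 to 1.06), from Ttll5 (27 and 39), Esrrb (21 and 36) and Ift43 (10 and 18). The Ttll5 gene overlaps Tgfb3 on the opposite strand. Tgfb1 had 50 and 78, mostly from Exosc5 (24 and 42) and Hnrnpul1 (17 and 26), with an interval that just includes 0 (0.52, -0.01 to 1.07). Starts with no listed pair of another RNA in Input included Bmp1 (44 pairs in H3K27me3-RADIP), Bmp6 (30), Smurf1 (25), Lefty2 (21), Ski (19), Id3 (18) and Skil (12). At Bmp6 the RNAs were Fars2, Rreb1 and Jarid2, the last the RNA of a PRC2 cofactor gene. In the other direction, Tgfbr1 (11), Tgfbr3 (10), Bmpr1b (10), Bmp7 (8) and Gdf3 (8) had pairs in Input and none listed in H3K27me3-RADIP, and Nodal had 23 and 17 (log2 ratio -0.55, -1.55 to 0.41). Id1 (32 and 31), Tgfb2 (42 and 38), Acvr1c (14 and 13) and Lefty1 (20 and 22) were close to even.

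**Figure D5:**
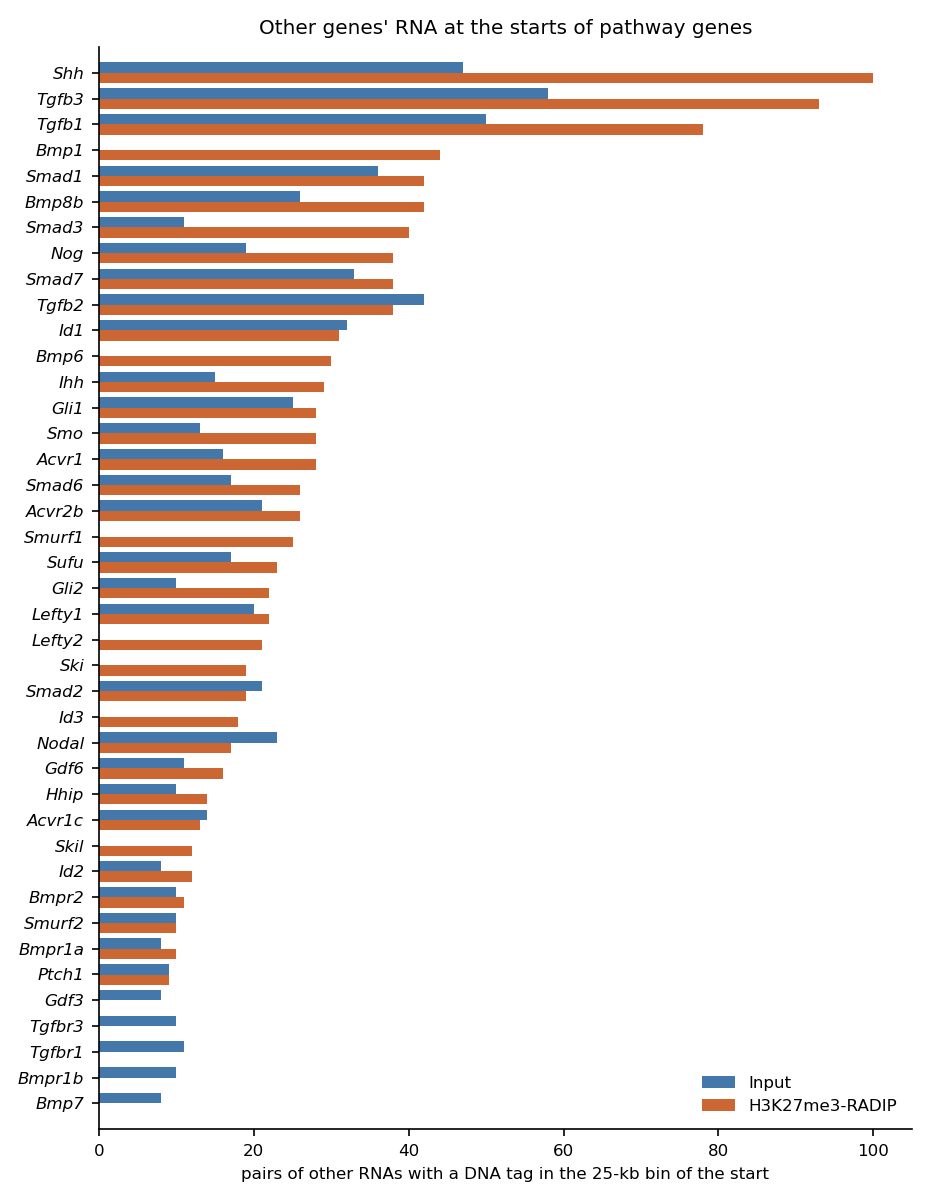
Pairs of other genes' RNA with a DNA tag in the 25-kb bin of the start (horizontal axis) in Input and H3K27me3-RADIP, for the 41 of 56 pathway genes with any. Shh (47 and 100), Tgfb3 (58 and 93) and Tgfb1 (50 and 78) had the most in H3K27me3-RADIP.

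Smad3 had the largest log2 ratio among starts with pairs of other RNAs in both libraries, 1.75 (0.76 to 2.86), from 11 and 40 pairs. Map2k5 RNA gave 11 and 20 of these, and Aagab (12) and Megf11 (8) were listed in H3K27me3-RADIP only. Its promoter window is printed with that of Gli2, whose start bin had 10 and 22 pairs of other RNAs from Clasp1 (10 and 11) and Tfcp2l1 (0 and 11). Both run from 250 bases before to 50 after the start (RefSeq, GRCm38.p6), and the capitals mark CG, a pair of letters that reads the same on both strands.
Smad3, chr9:63757945-63758244, minus strand: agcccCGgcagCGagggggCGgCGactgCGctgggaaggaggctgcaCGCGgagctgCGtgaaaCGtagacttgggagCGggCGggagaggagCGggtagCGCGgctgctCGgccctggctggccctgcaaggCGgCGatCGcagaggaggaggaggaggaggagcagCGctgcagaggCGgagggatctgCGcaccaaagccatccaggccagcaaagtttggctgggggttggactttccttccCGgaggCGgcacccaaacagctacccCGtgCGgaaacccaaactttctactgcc
Gli2, chr1:119053570-119053869, minus strand: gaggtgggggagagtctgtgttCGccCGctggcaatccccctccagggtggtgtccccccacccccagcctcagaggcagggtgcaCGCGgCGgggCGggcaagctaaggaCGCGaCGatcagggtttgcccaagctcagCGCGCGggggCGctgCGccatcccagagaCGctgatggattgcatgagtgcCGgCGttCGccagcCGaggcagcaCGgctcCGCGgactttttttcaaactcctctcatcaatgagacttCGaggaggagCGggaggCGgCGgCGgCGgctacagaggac
The Smad3 window held 25 CG and the Gli2 window 28, and 18.4% and 14.2% of the 32851 RefSeq promoter windows held at least as many. A window was found for 38 of the 56 genes, with a median of 29 CG against 7 over all windows. The window nearest to the annotated start was taken at any distance. It lay 187161 bases away for Bmpr1b, 30948 for Cdon and 7863 for Ptch1, and those of Bmpr1b and Cdon lie outside the start bin. The median was 29 for the 26 of these 38 genes with pairs of other RNAs in the start bin and 29.5 for the 12 without.

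The other genes of these pathways were read from a list of 80, of which 44 were listed in both libraries, 4 in Input only and 7 in H3K27me3-RADIP only. The test called 7 of the 44, again beside 14.5% of all pcRNAs. Called higher in H3K27me3-RADIP were Ltbp3 (7 and 26 pairs) and Ltbp2 (21 and 47), of the latent TGF-beta binding proteins, the BMP coreceptor Rgma (11 and 31), the TGF-beta activated kinase Map3k7 (158 and 283) and Btrc (323 and 514), which marks GLI proteins for processing. Called lower were Rnf111 (107 and 58), a ubiquitin ligase that relieves SMAD repression, and Usp9x (733 and 464), which deubiquitinates Smad4. Pcsk6, a convertase that activates Nodal and BMP precursors, had the most pairs in both libraries (902 and 1171). The coactivator Crebbp (752 and 593), the kinase Gsk3b (522 and 538) and the repressor Zeb1 (520 and 555) also had many. Both directions were again present, and the median log2 fold was -0.03.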

How the data were processed

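RADIP pairs an RNA tag with a DNA tag by proximity ligation and adds immunoprecipitation. The authors trimmed and mapped the tags to mm10 (CASAVA 1.8.2, STAR 2.5.0a and BWA 0.7.15-r1140 per the submitters' processing notes), assigned RNA tags to GENCODE genes by strand, merged the 8 libraries of each condition and kept the pairs whose RNA passed a q-value limit in a 25-kb bin. The deposited p-value and q-value columns and the tag positions (deposited as 25-base windows, 1-based) were used as given, and 1 line was counted as 1 pair. Gene positions came from GENCODE M21 (mm10), an older release, in which the identifiers of all 44 listed members matched. Pair counts were scaled by TMM and tested with an exact negative binomial test (Python 3, scipy), which compares 2 merged libraries, not conditions. On counts of 8158 genes simulated with the assumed coefficient of variation of 0.1, it called 84% of log2 folds of 1 and 64% of -1. The changed genes were drawn only from those with at least 100 pairs over both libraries. Bmp1, Tgfbr3 and Acvr2a had fewer, and recovery at such counts was not simulated. Shares carry Wilson intervals, folds Clopper-Pearson intervals (95%). PCR duplicates cannot be told from independent molecules, and the number of pairs limits precision. Members and gene lists were chosen with earlier results of these data known. Members with at least 50 pairs in either library, or called, are given singly, and far bins for members with at least 5 bins over 100 kb. The alternatives are in the closing section.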

Additional observations from a re-analysis of the deposited data

How the results depend on the processing

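No paired analysis was possible because the authors merged the numbered libraries of each condition into 1 table, which also leaves no replicate to leave out. The 4 called genes became 2 with an assumed coefficient of variation of 0.2 and 0 with 0.4, where simulated log2 folds of 2 were not recovered either (0%), and 0 when only bins listed for the RNA in both libraries were counted. The share of all pcRNAs called fell likewise, from 14.5% to 1.32%, 0% and 0.50%, so the fall is not particular to these genes. Library totals, TMM over all RNAs, identical tag positions counted once and at least 20 pairs over both libraries left 4 calls each, and q at most 0.01 gave 5, with Bmp7, Acvr1b and Ski gained while Bmp1 and Tgfbr3 were no longer listed in both libraries. The difference in long-range share, 5.39 points, was 3.58 points over bins listed in both libraries and 3.69 with every gene at equal weight. The ratio of other RNAs' pairs at the starts, 1.46, was 1.26 with the bin on each side included and 1.24 counting only what each RNA had in bins where both tables list it, a setting chosen after seeing the data. The other 17 of the 24 recomputed values of these comparisons stayed within their limits, and none of the 24 turned direction. Single genes did: over bins listed in both libraries the difference in long-range share turned for Tgfbr1, Acvr1, Smad3, Smurf1, Ptch1 and Hhip. Depth limits genes near the smallest listed number of 7 pairs. The cause was not tested.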
